A study of Mus musculus and Homo sapiens with 14 samples.

Results

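The genes described here encode the sensors of double-stranded RNA and the adaptor through which the cytosolic sensors signal. They were chosen by symbol: Ddx58 (RIG-I, listed as Rigi in the EG7-OVA table), Ifih1 (MDA5), Dhx58 (LGP2), Mavs, Zbp1, Eif2ak2 (PKR), Tlr3 and Adar. All 8 were found, among 50559 gene entries of the EL4 table and 55969 entries of the EG7-OVA table. RNA sequencing of total RNA was carried out on tumours grown from the mouse T-cell lymphoma line EL4 and on cultured EG7-OVA cells, an EL4 derivative that makes ovalbumin. The tumours were labelled P0 and P3, a pair of names that the labels do not explain, and all libraries used here were labelled wild type (WT). EG7-OVA cells received DMSO as the solvent control, 1.5 µM azacytidine or 0.2 µM decitabine. Each was added at 0, 24 and 48 h, and the cells were harvested at 72 h. Each of the 5 groups held 2 libraries. The labels give no mouse strain, age or number for the tumours and do not say whether replicates were separate animals or cultures, so p-values measure only the spread between these libraries.

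RIG-I and MDA5 are cytosolic helicases that bind double-stranded RNA and then pass the signal to MAVS, a protein of the outer mitochondrial membrane that starts the kinase cascade leading to type I interferon. LGP2 is a related helicase without signalling domains of its own. PKR phosphorylates the translation initiation factor eIF2 when it binds double-stranded RNA, ZBP1 binds Z-form nucleic acid and can start necroptosis, TLR3 reads double-stranded RNA in endosomes, and ADAR edits adenosines in such RNA so that the cell's own transcripts are less well sensed. Several of these genes are themselves switched on by interferon. Azacytidine and decitabine are cytidine analogues that trap DNA methyltransferases, and loss of DNA methylation is known to let silenced repeats be transcribed, some of them into double-stranded RNA. The study's design compares P3 with P0 tumours and each drug with DMSO.

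Library totals ran from 15690747 to 25328708 counts. Levels are given as CPM, the counts scaled to a common library size. Across genes, the log2 CPM of replicate pairs correlated at r = 0.969 to 0.991, and edgeR's biological coefficient of variation stood at 0.188 for tumours and 0.244 for EG7-OVA cells. All 8 T-cell markers (Cd3e, Cd3d, Cd3g, Cd2, Cd5, Thy1, Lck and Cd28) had reads in every library. In EG7-OVA cells they summed to 1547 and 1551 CPM with DMSO, 1901 and 1703 CPM with azacytidine and 2125 and 2099 CPM with decitabine. In tumours they summed to 2150 and 1932 CPM in P0 and 1508 and 1657 CPM in P3. Macrophage markers, 12 genes, summed in EG7-OVA cells to 21.2 and 23.6 CPM with DMSO, 35.7 and 47.6 CPM with azacytidine and 60.8 and 62.1 CPM with decitabine. Of the 8 tested, 4 were higher and 0 lower with each drug (medians 1.38 and 2.16), while 4 genes of the list, C1qa, C1qb and C1qc among them, had no read in any EG7-OVA library. Of 4 fibroblast markers tested, 3 were higher and 0 lower with each drug, where 13.6% and 12.4% of all genes were higher and 6.7% and 4.3% lower. Other lists did not share this direction. Of 3 dendritic-cell markers tested, 1 was lower with each drug and 1 was higher with decitabine. The 1 NK-cell marker tested was lower with azacytidine and did not pass with decitabine. Of 6 B-cell markers tested, 0 passed with either drug. The part of these markers in the drug results was not tested. The 2 DMSO libraries stood apart in fibroblast markers, at 3.37 and 32.4 CPM summed over 7 genes, and in B-cell markers, at 4.22 and 29.8 CPM. The tumour libraries hold cells of the host as well, and in bulk RNA fewer cells of a type and less RNA per cell cannot be told apart.

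The promoter windows of 3 of the sensor genes, Ddx58, Ifih1 and Eif2ak2, held the core of the motif that interferon-activated factors bind. A stretch is shown for each match of this core or of its 1-base spacing, whether or not the gene was called with a drug. Windows from 250 bases before to 50 bases after the start were taken from RefSeq on GRCm38.p6 (mm10) and matched for 6 of the 8 genes in 8 windows, with none used for Dhx58 or Zbp1. The core of the interferon-stimulated response element, searched as GAAANNGAAA on both strands, was found in Ddx58 (chr4:40239804-40239833, minus strand), Eif2ak2 (chr17:78882535-78882564, minus strand) and Ifih1 (chr2:62646206-62646235, minus strand). Across all 32851 windows of the same length, 3.44% held it. A spacing of 1 base, GAAANGAAA, was searched after the windows had been seen and was found in Ddx58 (chr4:40239867-40239896, minus strand) and in the third window of Adar (chr3:89730735-89730764, plus strand), against 3.17% of all windows. The capitals mark the match, which in the first Ddx58 stretch lies on the opposite strand to the gene.
Ddx58, 2-base spacing: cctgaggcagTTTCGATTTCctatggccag
Eif2ak2, 2-base spacing: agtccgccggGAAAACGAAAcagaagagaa
Ifih1, 2-base spacing: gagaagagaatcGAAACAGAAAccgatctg
Ddx58, 1-base spacing: gtctaggttcaGAAACGAAActggatcccc
Adar, 1-base spacing: gccttttcaagGAAACGAAAgtgaactctg

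Counted from the start at base 1, the 2-base motif lay at bases 3 to 12 in Ddx58, 19 to 28 in Eif2ak2 and 33 to 42 in Ifih1. The 1-base form lay at bases -60 to -52 in Ddx58 and 29 to 37 in Adar. The core of the gamma-activated site, TTCNNNGAA, was found in Eif2ak2 at bases -178 to -170 and in Adar at bases 23 to 31, where it overlaps the 1-base motif, against 8.30% of all windows. None of the 3 motifs was found in the windows of Mavs or Tlr3, which says only that these letters are not in those stretches. A match is a description of the letters and not of binding.

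The drugs act on methylation of cytosine followed by guanine (CpG), so CpG content is shown for the 6 genes with a window. Zbp1 and Dhx58, which rose with both drugs, had no window, so their CpG were not counted. The windows of the 6 genes held 15 CpG in Ddx58, 17 in Eif2ak2, 14 in Ifih1, 19 in Mavs, 10 in Tlr3, and 6, 34 and 12 in the 3 windows of Adar, against a median of 7 over all windows. Ddx58, whose transcript rose, and Mavs, whose transcript did not pass the test, held 12 and 15 CpG in the 250 bases before the start. As many CpG as in the whole window of Ddx58 were held by 34.6% of all windows, and as many as in that of Mavs by 28.1%. Methylation was not measured in these libraries. The CpG are in capitals below, for Ddx58 (chr4:40239826-40240075, minus strand) and Mavs (chr2:131233813-131234062, plus strand).
Ddx58 upstream: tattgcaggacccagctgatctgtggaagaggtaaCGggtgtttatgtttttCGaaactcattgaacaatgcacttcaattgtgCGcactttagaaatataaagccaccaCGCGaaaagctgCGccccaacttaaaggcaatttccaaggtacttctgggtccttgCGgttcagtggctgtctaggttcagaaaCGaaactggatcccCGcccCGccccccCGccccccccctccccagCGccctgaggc
Mavs upstream: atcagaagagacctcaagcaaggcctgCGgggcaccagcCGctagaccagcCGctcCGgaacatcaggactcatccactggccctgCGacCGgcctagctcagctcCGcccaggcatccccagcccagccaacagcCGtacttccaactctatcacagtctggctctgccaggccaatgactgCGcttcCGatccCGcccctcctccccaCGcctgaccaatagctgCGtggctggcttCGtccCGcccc

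In EG7-OVA cells 4 of the sensor genes rose with both drugs, and the adaptor did not pass the test. Zbp1, Rigi, Ifih1 and Dhx58 were higher with azacytidine, and the same 4 genes and Eif2ak2 were higher with decitabine. The largest change among the sensors was that of Zbp1, with an 8.86-fold rise with azacytidine and a 14.9-fold rise with decitabine. Mavs was at -0.30 ± 0.18 and -0.25 ± 0.18 on the log2 scale (SE), and Adar at 0.25 ± 0.17 and 0.01 ± 0.17. Differences were tested by edgeR's quasi-likelihood test with Benjamini-Hochberg adjustment over all genes and a threshold of adjusted p 0.05.

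By that test 4 of the 7 sensor genes tested passed with azacytidine, all 4 higher, where 20.3% of 19123 genes passed, 13.6% as higher and 6.7% as lower. With decitabine 5 of the 7 passed, all higher, where 16.7% of genes passed, 12.4% as higher and 4.3% as lower. Each of the 7 genes had 14 reads or more in every library, and Tlr3 was not tested. The groups did not overlap for 7 of the 7 genes with azacytidine, 6 higher and 1 lower, where 61.1% of all genes did not overlap, 33.6% higher and 27.4% lower. With decitabine they did not overlap for 6 of 7, 5 higher and 1 lower, against 58.8% of all genes, 33.2% higher and 25.6% lower. The median log2 fold change of the 7 genes was 1.15 with azacytidine and 1.49 with decitabine, against 0.03 and 0.04 over all genes tested. The drug comparisons share the same 2 DMSO libraries, so they are given side by side and their likeness is not a result. The plot of levels in the EG7-OVA libraries shows these groups.

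**Figure D1:**
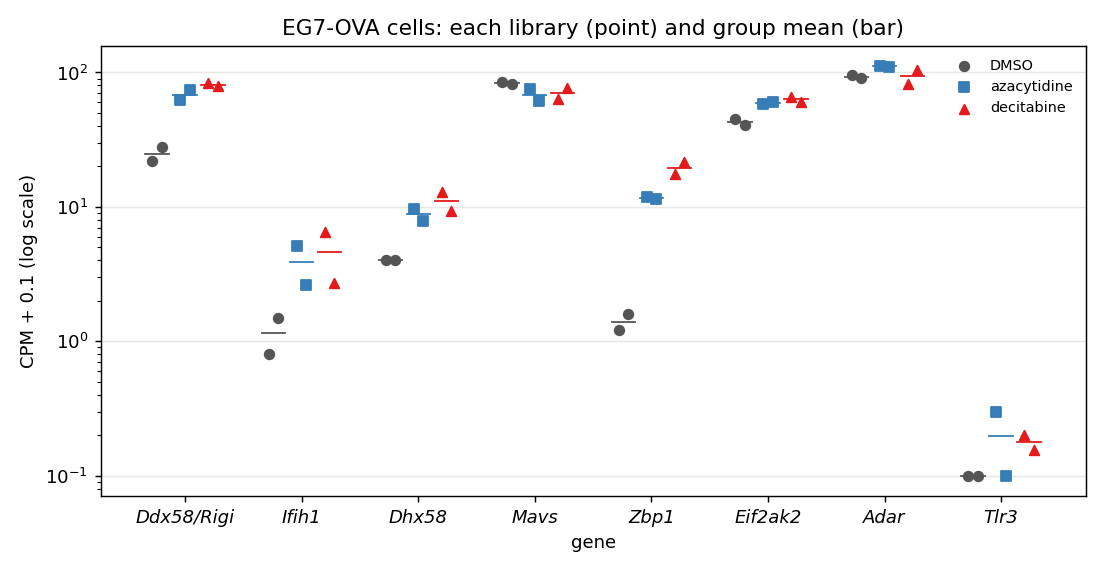
Levels of the 8 genes in the 6 EG7-OVA libraries, as CPM + 0.1 on a log axis; points are libraries and short bars are group means for DMSO (grey circles), azacytidine (blue squares) and decitabine (red triangles). Zbp1 sits at 1.11 and 1.50 CPM with DMSO and at 11.3 to 21.5 CPM with the drugs, Rigi, Ifih1 and Dhx58 are higher with the drugs, and Mavs and Adar stay between 61.0 and 111 CPM.

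RIG-I, the sensor of short double-stranded RNA with triphosphate ends, was the most abundant of the 3 helicases in these cells. Rigi stood at 21.7 and 27.7 CPM in the DMSO libraries, 62.0 and 74.0 CPM with azacytidine and 83.4 and 78.6 CPM with decitabine. Every drug library lay above both DMSO libraries, and the decitabine libraries lay above the azacytidine libraries. Rigi rose 2.76-fold with azacytidine (95% interval 2.06 to 3.69, adjusted p = 0.000658) and 3.28-fold with decitabine (2.45 to 4.41, adjusted p = 0.000353). The call was kept when any 1 of the 6 libraries was left out. The gene lies at chr4:40203773-40239828 on the minus strand of mm10, and none of its exon bases is shared with another gene of GENCODE vM21, as for Ifih1, Mavs and Zbp1.

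MDA5, the sensor of long double-stranded RNA, had the fewest reads without drug among the 7 genes tested. Ifih1 (chr2:62595798-62646255, minus strand) had 14 and 28 reads in the DMSO libraries, 77 and 42 with azacytidine and 126 and 48 with decitabine, or 0.704 and 1.40, 5.03 and 2.50, and 6.42 and 2.62 CPM. All 4 drug libraries were above both DMSO libraries, and within each drug the first library was higher than the second. It rose 3.57-fold with azacytidine (95% interval 1.47 to 8.64, adjusted p = 0.0476) and 4.29-fold with decitabine (1.77 to 10.4, adjusted p = 0.0318). These calls rested on few reads: the azacytidine call was lost without azacytidine library 1 (log2 fold change 1.22, adjusted p = 0.296), without azacytidine library 2 (2.22, adjusted p = 0.0552) and without DMSO library 1 (1.40, adjusted p = 0.189). It was also lost with a block on the replicate number (1.69, adjusted p = 0.0670) and with limma-voom (1.80, adjusted p = 0.0730). The decitabine call was lost without decitabine library 1 (1.28, adjusted p = 0.227) and without DMSO library 1 (1.69, adjusted p = 0.133). DMSO libraries are numbered here as in the table's columns.

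LGP2 modulates the signalling of the other helicases. Dhx58 (chr11:100694884-100704271, minus strand) stood at 3.92 and 3.94 CPM in the DMSO libraries, 9.61 and 7.81 CPM after azacytidine and 12.8 and 9.29 CPM after decitabine. The DMSO libraries were almost equal and every drug library was above them. It rose 2.21-fold with azacytidine (95% interval 1.36 to 3.60, adjusted p = 0.0281) and 2.81-fold with decitabine (1.73 to 4.57, adjusted p = 0.0105). The azacytidine call was lost in a fit of only the 4 libraries compared (log2 fold change 1.12, adjusted p = 0.0510). It was lost as well without azacytidine library 1 (0.96, adjusted p = 0.178) or 2 (1.25, adjusted p = 0.0724) and without DMSO library 1 (1.12, adjusted p = 0.0915) or 2 (1.10, adjusted p = 0.0722). The decitabine call was lost without decitabine library 1 (1.20, adjusted p = 0.0815). An antisense gene, Dhx58os, shares 4.31% of its exon bases, and the sources used here do not say whether strand was used in counting.

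MAVS is the point on which RIG-I and MDA5 converge. Mavs (chr2:131234063-131248025, plus strand) stood at 84.6 and 82.2 CPM in the DMSO libraries, 74.7 and 61.0 CPM after azacytidine and 63.7 and 76.3 CPM after decitabine. All 4 drug libraries were below both DMSO libraries and the libraries of each drug differed from each other more than the DMSO libraries did. The adjusted p was 0.275 with azacytidine and 0.382 with decitabine, and the difference did not pass the test in either comparison.

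Zbp1 had the largest fold change of the 7 genes tested with each drug. Zbp1 (chr2:173206612-173218923, minus strand) had 22 and 30 reads in the DMSO libraries, 181 and 190 after azacytidine and 341 and 394 after decitabine. These are 1.11 and 1.50 CPM, 11.8 and 11.3 CPM, and 17.4 and 21.5 CPM, and no library of a group reached the next group. The 8.86-fold rise with azacytidine had a 95% interval of 5.45 to 14.4 (log2 3.15 ± 0.31, adjusted p = 0.000155). The 14.9-fold rise with decitabine had an interval of 9.08 to 24.4 (log2 3.90 ± 0.32, adjusted p = 6.86e-05). Both calls were kept in every alternative run, each library left out in turn included.

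PKR was abundant in all groups and moved little. Eif2ak2 (chr17:78852564-78882573, minus strand) stood at 45.1 and 40.3 CPM in the DMSO libraries, 57.8 and 60.6 CPM after azacytidine and 65.8 and 60.2 CPM after decitabine. All drug libraries lay above the DMSO libraries. The rise of 1.47-fold with decitabine passed the test (95% interval 1.14 to 1.90, adjusted p = 0.0448), and azacytidine gave 0.47 ± 0.17 on the log2 scale (adjusted p = 0.0739). The decitabine call lies close to the threshold and was lost when any 1 of the 6 libraries was left out (adjusted p = 0.0965 to 0.233). It was kept with DESeq2 (adjusted p = 0.0191) and with a stricter filter (adjusted p = 0.0420), and lost in the other alternatives. DESeq2 called the azacytidine difference as well (adjusted p = 0.0459). The genes Gm26637 and n-R5s29 share 4.32% of its exon bases.

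ADAR, which dampens sensing, did not pass the test with either drug. Adar (chr3:89715022-89753446, plus strand) stood at 95.1 and 90.5 CPM in the DMSO libraries, 111 and 110 CPM after azacytidine and 82.6 and 104 CPM after decitabine. The azacytidine libraries were above DMSO and the decitabine libraries lay on both sides of it (adjusted p = 0.331 and 0.982). The counts are per gene, so the interferon-inducible long form and the constitutive short form of ADAR are not separated, and 16.8% of the exon bases are shared with Chrnb2 on the opposite strand. The sign of the decitabine value changed with the scaling.

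TLR3 was at the limit of detection. Tlr3 (chr8:45395665-45411080, minus strand) had 0 and 0 reads in the DMSO libraries, 3 and 0 after azacytidine and 2 and 1 after decitabine. A count of 0 allows up to 0.151 and 0.150 CPM in the DMSO libraries (3 counts, counting error only). No fold is given, since the groups lie at or under the level of 3 reads per library.

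**Figure D2:**
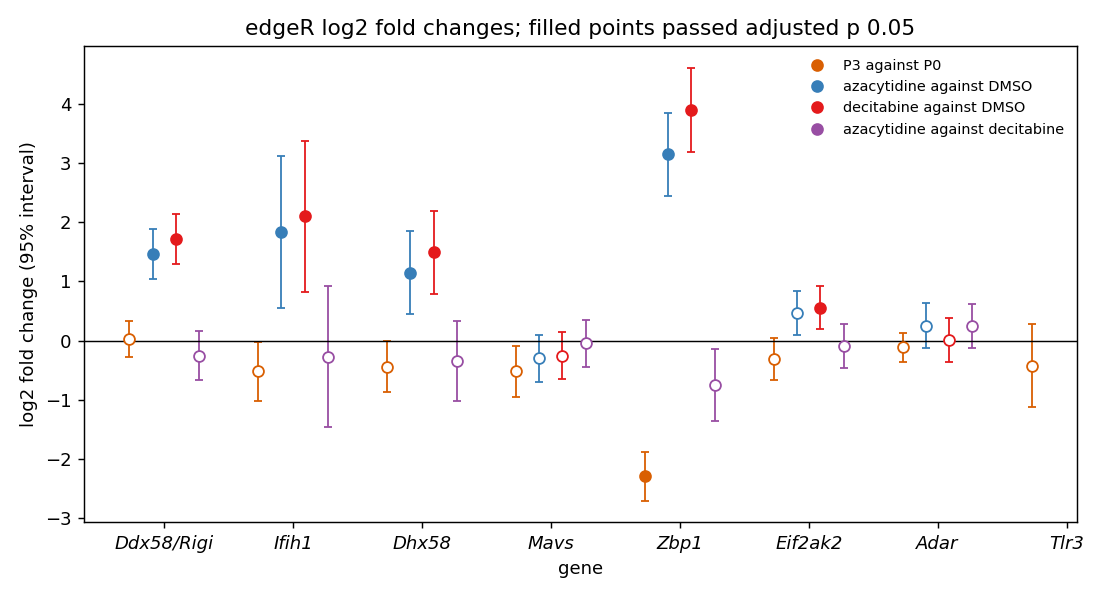
edgeR log2 fold changes of the 8 genes (vertical axis, with 95% intervals) in the 4 comparisons; filled points passed adjusted p 0.05 and open points did not. Zbp1 is the lowest point in P3 against P0 at -2.29 and the highest with azacytidine at 3.15 and decitabine at 3.90, and the Mavs and Adar points are all open.

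The doses of the drugs differed, and no gene of 19123 passed the test between azacytidine and decitabine (0% called) by edgeR, with 1218 genes and 1 sensor gene at an unadjusted p under 0.05. DESeq2 called 177 genes and none of the sensors. That sensor gene was Zbp1, at -0.75 on the log2 scale for azacytidine against decitabine (95% interval -1.36 to -0.13, edgeR adjusted p = 0.627). The azacytidine libraries of Zbp1 were below both decitabine libraries. Rigi was at -0.25 (-0.66 to 0.16) and Ifih1 at -0.27 (-1.46 to 0.92), and these intervals do not show that the drugs act alike. For 3 of the 7 genes the drug groups did not overlap, 1 higher and 2 lower with azacytidine, where 35% of all genes did not overlap, 17.4% higher and 17.6% lower.

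Per length, the levels of the 8 genes spanned a wide range and their order changed with drug. Levels per length are CPM divided by the gene's exon length in kilobases. With DMSO, Mavs stood at 24.9 ± 0.50 CPM per kb (SD, n = 2), followed by Adar at 11.4, Eif2ak2 at 8.36, Rigi at 3.50, Dhx58 at 1.20, Zbp1 at 0.369 and Ifih1 at 0.129 CPM per kb. No neighbours in that order overlapped between libraries. With decitabine, Zbp1 at 5.51 ± 0.831 CPM per kb stood above Dhx58 at 3.38 ± 0.758, the reverse of their order with DMSO. Rigi at 11.5 ± 0.478, Eif2ak2 at 12.3 ± 0.774 and Adar at 11.5 ± 1.86 CPM per kb overlapped there. With azacytidine the order was Mavs at 20.3, Adar at 13.6, Eif2ak2 at 11.6, Rigi at 9.64, Zbp1 at 3.28, Dhx58 at 2.66 and Ifih1 at 0.461 CPM per kb, and no neighbours overlapped.

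**Figure D3:**
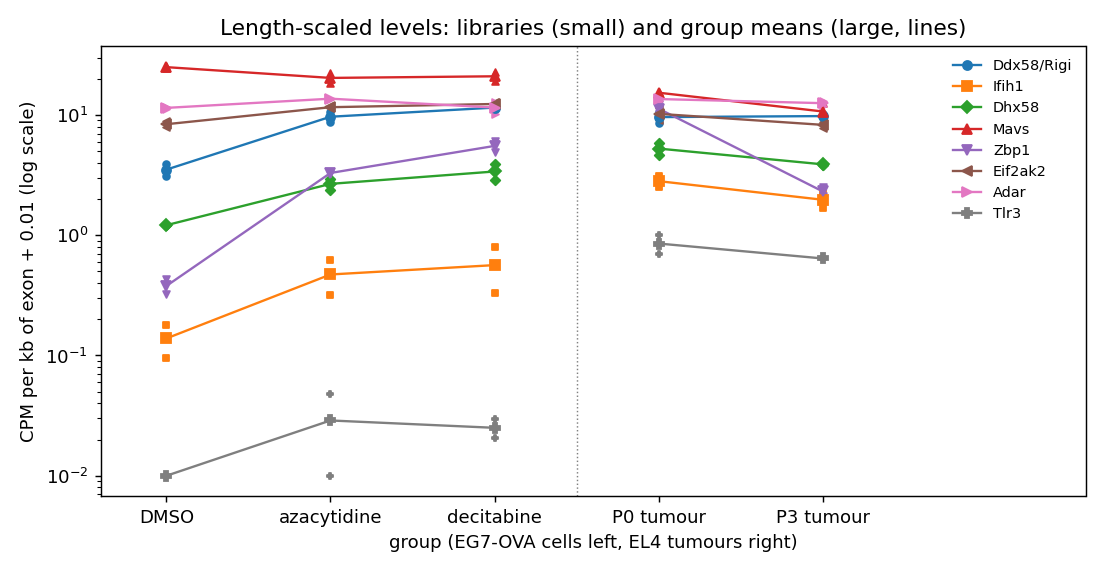
Levels per exon length as CPM per kb + 0.01 on a log axis in the 5 groups, with libraries as small marks and group means as large marks joined by lines; the dotted line separates the tables, which were scaled separately. Mavs is the highest of the 8 genes in each EG7-OVA group and in P0, and Zbp1 runs from 0.369 CPM per kb with DMSO to 11.2 CPM per kb in P0 tumours.

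In the tumours the sensor genes were all detected, and P3 differed from P0 in 1 of them. Zbp1 fell 4.89-fold in P3. The other 7 genes did not pass the test: Ddx58 was at 0.03 ± 0.12 on the log2 scale (SE), and the remaining 6 lay between -0.52 and -0.11. All 8 genes were tested and 1 was called, lower, where 38.7% of 19993 genes passed, 18.8% as higher and 19.9% as lower. At an unadjusted p under 0.05, 3 of the 8 passed. The P3 libraries lay below both P0 libraries for 6 genes, above for 0, and overlapped for 2, where the groups did not overlap for 76.1% of all genes, with P3 higher for 37.6% and lower for 38.5%. The median log2 fold change of the 8 genes was -0.43, against -0.00 over all genes.

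**Figure D4:**
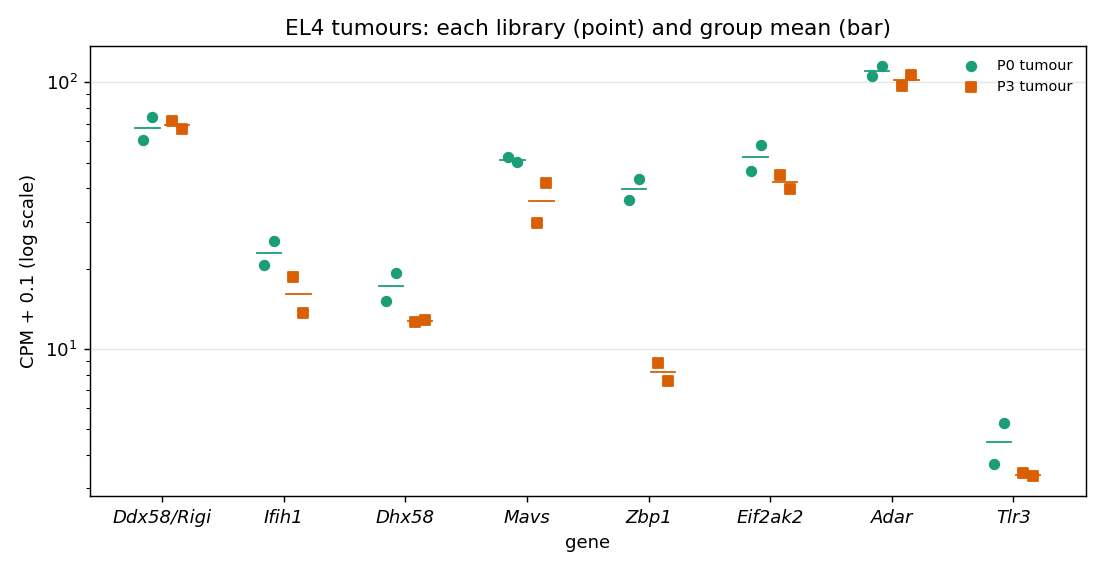
Levels of the 8 genes in the 4 EL4 tumour libraries, as CPM + 0.1 on a log axis; points are libraries and short bars are group means for P0 (green circles) and P3 (orange squares). Zbp1 is at 35.9 and 43.4 CPM in P0 and at 8.76 and 7.46 CPM in P3, while the P0 and P3 points of Ddx58 overlap.

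Zbp1 stood at 35.9 and 43.4 CPM in the P0 libraries and at 8.76 and 7.46 CPM in the P3 libraries. The groups lay far apart relative to the spread within them (log2 fold change -2.29 ± 0.16, adjusted p = 0.00122). The edgeR call was lost without P0 library 1 (-2.43, adjusted p = 0.109) and without P0 library 2 (-2.15, adjusted p = 0.0722), settings in which edgeR called none of all genes. DESeq2 runs without P0 library 1 or 2 were chosen after seeing the data and kept the Zbp1 call. A lone P0 library gives no spread within P0. For the lists below, part of the tumour calls were lost in the DESeq2 runs without a P0 library as well, those of Mlkl, Eif2ak1 and Eif2ak4 among them. Values without a P0 library are given there only from the edgeR runs. Markers of macrophages (12 of 12 with reads in every library) summed to 1397 and 1728 CPM in P0 and 391 and 360 CPM in P3. Dendritic-cell markers summed to 175 and 200.0 CPM in P0 and 46.8 and 48.2 CPM in P3, B-cell markers to 191 and 367 against 28.4 and 28.6 CPM, and NK-cell markers to 137 and 145 against 33.3 and 22.2 CPM. Fibroblast markers summed to 2862 and 2928 against 1670 and 1023 CPM, while neutrophil markers stood at 0.521 and 1.59 CPM in P0 and 10.2 and 46.7 CPM in P3. These cell types can express the sensors, and their part in the result was not tested.

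Among the helicases, Ddx58 stood at 60.9 and 74.2 CPM in P0 and 71.2 and 66.4 CPM in P3, and the groups overlapped. Ifih1 stood at 20.6 and 25.2 against 18.4 and 13.6 CPM, with P3 lower in both libraries (-0.52 ± 0.20, adjusted p = 0.0915). Dhx58 stood at 15.1 and 19.2 against 12.6 and 12.8 CPM (-0.44 ± 0.18, adjusted p = 0.0987). Neither helicase gene passed, and each did without 1 of the P3 libraries: Ifih1 without P3 library 1 (adjusted p = 0.000862) and Dhx58 without P3 library 2 (adjusted p = 0.0312). Mavs stood at 52.2 and 50.1 CPM in P0 and 29.6 and 41.7 CPM in P3 (-0.52 ± 0.18, adjusted p = 0.0641). The P3 libraries of Mavs differed more from each other than the P0 libraries did, DESeq2 called it (adjusted p = 0.0457), and edgeR called it without P3 library 2 (adjusted p = 1.27e-06).

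Eif2ak2 stood at 46.2 and 58.0 CPM in P0 and 44.7 and 39.7 CPM in P3 (-0.31 ± 0.14, adjusted p = 0.140, and 0.0203 without P3 library 1). Tlr3, which macrophages and dendritic cells express, stood at 3.60 and 5.17 against 3.32 and 3.25 CPM (-0.42 ± 0.28, adjusted p = 0.270). Adar stood at 105 and 115 against 96.8 and 106 CPM (-0.11 ± 0.10, adjusted p = 0.380), and its groups overlapped. The exon bases of Tlr3 are shared to 7.32% with Gm45542. Tlr3 thus had reads in each tumour library, while the EG7-OVA libraries held at most 3 each.

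Per length in the P0 tumours, Mavs led at 15.3 ± 0.446 CPM per kb (SD, n = 2), followed by Adar at 13.5, Zbp1 at 11.2 ± 1.50, Eif2ak2 at 10.2 ± 1.63, Ddx58 at 9.58 ± 1.33, Dhx58 at 5.24, Ifih1 at 2.80 and Tlr3 at 0.842 CPM per kb. The libraries of Zbp1, Eif2ak2 and Ddx58 overlapped. In P3, Adar at 12.5 ± 0.818 and Mavs at 10.7 ± 2.57 CPM per kb overlapped, as did Mavs and Ddx58 at 9.77 ± 0.482. Zbp1 at 2.30 ± 0.260 had moved from the third to the sixth place, where it overlapped Ifih1 at 1.96 ± 0.423 CPM per kb. The remaining P3 levels were Eif2ak2 at 8.25, Dhx58 at 3.87 and Tlr3 at 0.630 CPM per kb.

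The interferon genes that lie downstream of MAVS had few or no reads in these libraries. Ifnb1, the gene of interferon beta, had 0 reads in every library of both tables, as had Ifna1, Ifna2, Ifna4, Ifna5 and Ifna9. A count of 0 allows between 0.119 and 0.196 CPM in a single library. Ifnk and Ifnz had reads in every library, 41 and 42 in all over the 6 EG7-OVA libraries and 56 and 34 over the 4 tumour libraries. Ifng, the gene of interferon gamma from T and NK cells, had 37 reads in the P0 tumours, 18 and 19 per library, and 0 in both P3 libraries, and 143 reads over the 6 EG7-OVA libraries. Of the interferon genes, 3 could be tested in tumours, with Ifng lower in P3 and 2 not past the test, and 2 could be tested in EG7-OVA cells, neither of which passed with either drug in the fit of all 6 libraries. Ifng stood at 13 and 10 reads in the DMSO libraries, 4 and 22 after azacytidine and 30 and 64 after decitabine. The decitabine value of 2.11 ± 0.70 on the log2 scale gave an edgeR adjusted p = 0.0660. The decitabine count of this list was 1 with no filter, with the stricter filter, with only the 4 libraries compared and without azacytidine library 1 or 2.

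Transcription factors that carry the interferon signal to the genome rose in part with both drugs. Of 7 interferon-activated transcription factors tested, 4 were higher with azacytidine, 4 with decitabine and 0 lower with either (medians 1.27 and 1.49). Over all genes, 13.6% and 12.4% were higher and 6.7% and 4.3% lower. Irf1, a factor that interferon gamma induces strongly, rose from 18.9 and 19.5 CPM to 70.6 and 53.3 CPM with azacytidine and 89.0 and 88.5 CPM with decitabine (1.69 ± 0.19 and 2.21 ± 0.19, adjusted p = 0.000286 and 9.33e-05, log2 scale). In tumours 6 of the 7 were lower in P3 and 0 higher (median -0.94), where 19.9% of all genes were lower and 18.8% higher. Irf8, a factor of myeloid and B cells, stood there at 85.8 and 94.0 against 13.8 and 13.5 CPM (-2.72 ± 0.11, adjusted p = 0.000366). The tumour calls were lost by edgeR without either P0 library, as for every list in the tumours: Irf8 gave adjusted p = 0.109 and 0.0606 without P0 library 1 or 2.

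Interferon-stimulated effector genes made up the list with the most calls. Of 18 tested in EG7-OVA cells, 13 were higher with azacytidine, 13 with decitabine and 0 lower (medians 1.49 and 1.91), and the azacytidine count was 8 without azacytidine library 1. Over all genes, 13.6% were higher with azacytidine and 12.4% with decitabine. Of 20 tested in tumours, 13 were lower and 2 higher in P3 (median -1.28), where 19.9% of all genes were lower and 18.8% higher. Rsad2, the antiviral enzyme viperin, stood at 22.2 and 29.2 CPM in P0 and 4.78 and 2.94 CPM in P3 (-2.73 ± 0.29, adjusted p = 0.00286, and 0.127 and 0.0886 without P0 library 1 or 2).

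The next list holds the signalling arm between the sensors and interferon. Of 23 genes of RIG-I-like receptor activation and MAVS signalling tested in EG7-OVA cells, 5 were higher with azacytidine and 3 with decitabine, 0 were lower, and the medians were 0.12 and 0.03. Among all genes 13.6% and 12.4% were higher, so the decitabine count is near the background. The azacytidine count was 1 without azacytidine library 1 or 2 and 2 without DMSO library 1, and the decitabine count was 0 without decitabine library 1 or DMSO library 1. Irf7, the factor that MAVS signalling activates and which is also counted among the transcription factors, rose from 3.47 and 4.93 CPM to 14.6 and 13.6 CPM with azacytidine (1.75 ± 0.31, adjusted p = 0.00354). With decitabine it reached 13.4 and 10.2 CPM (1.49 ± 0.31, adjusted p = 0.00926, and 0.0638 without decitabine library 1 and 0.0513 without DMSO library 1). Rnf135, the ubiquitin ligase that activates RIG-I, had 0 reads in both DMSO libraries, 13 and 17 with azacytidine and 1 and 8 with decitabine. Its azacytidine call was lost without azacytidine library 1 or 2 (adjusted p = 0.0708 and 0.0855).

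In tumours 6 of 25 of these signalling genes were higher in P3, 6 lower and 13 not past the test (median -0.11), shares near those of all genes (18.8% higher and 19.9% lower). Mex3c, a ligase that also ubiquitinates RIG-I, stood at 55.0 and 59.5 CPM in P0 and 108 and 133 CPM in P3 (1.07 ± 0.13, adjusted p = 0.00392). Traf5, an adaptor of receptor signalling, stood at 9.33 and 13.4 against 2.61 and 1.71 CPM (-2.39 ± 0.32, adjusted p = 0.00501). Without P0 library 1 or 2, Mex3c gave adjusted p = 0.135 and 0.101 and Traf5 0.128 and 0.103.

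Of 14 negative regulators of the pathway, 2 were higher and 0 lower with azacytidine, a share near the 13.6% of all genes, and 0 passed with decitabine by edgeR, with 4 at an unadjusted p under 0.05 and 0 to 2 called by the other tools and settings. The azacytidine count was 0 without azacytidine library 1 and 1 without azacytidine library 2, decitabine library 2 or either DMSO library. Nlrx1, a mitochondrial protein that restrains MAVS, rose from 20.9 and 19.0 CPM to 52.0 and 31.9 CPM with azacytidine (1.07 ± 0.24, adjusted p = 0.0114, and 0.145 without azacytidine library 1). In tumours 2 of 14 were higher and 5 lower in P3, where 18.8% of all genes were higher and 19.9% lower. Rnf125, the ligase that marks RIG-I and MAVS for degradation, stood at 285 and 255 CPM in P0 and 618 and 640 CPM in P3, a rise of 1.22 ± 0.11 (adjusted p = 0.00215, and 0.126 and 0.0927 without P0 library 1 or 2).

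Of the endosomal Toll-like receptor genes, 6 of 10 were higher with azacytidine and 6 with decitabine, and 0 were lower (medians 0.94 and 0.93). Over all genes, 13.6% and 12.4% were higher and 6.7% and 4.3% lower. The azacytidine count was 2 without azacytidine library 1. Unc93b1, the chaperone that takes these receptors, TLR3 among them, to endosomes, rose from 52.9 and 62.6 CPM to 203 and 174 CPM with azacytidine and 147 and 168 CPM with decitabine. These rises were 1.71 ± 0.18 (adjusted p = 0.000187) and 1.44 ± 0.18 (adjusted p = 0.000544), in cells where Tlr3 itself had at most 3 reads in a library. In tumours 5 of 12 were lower and 0 higher, where 19.9% of all genes were lower and 18.8% higher. Tlr9, the receptor for CpG DNA, stood at 10.9 and 19.4 CPM in P0 and 1.77 and 1.23 CPM in P3 (-3.33 ± 0.38, adjusted p = 0.00336, and 0.117 and 0.0819 without P0 library 1 or 2).

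Downstream of ZBP1, 1 of 6 genes of the cell death arm was higher with each drug, and it was Mlkl, the pore-forming effector of necroptosis. With azacytidine 13.6% of all genes were higher and with decitabine 12.4%, so a count of 1 in 6 is near the background. The medians of the arm were 0.24 and 0.20. Mlkl stood at 2.76 and 1.05 CPM in the DMSO libraries, 5.95 and 7.09 CPM after azacytidine and 7.14 and 7.98 CPM after decitabine. It rose by 1.77 ± 0.45 (adjusted p = 0.0200) and 1.98 ± 0.45 (adjusted p = 0.0142). The azacytidine call was lost without azacytidine library 1 (adjusted p = 0.0707) or 2 (0.103) and without DMSO library 2 (0.0586), and the decitabine call without decitabine library 2 (0.0752). Without DMSO library 2 the decitabine count of this arm was 2. In tumours 2 of the 6 genes were higher in P3, 1 was lower and 3 did not pass (median -0.14). Over all genes 18.8% were higher and 19.9% lower. Mlkl stood at 12.8 and 12.2 CPM in P0 and 24.3 and 21.9 CPM in P3, a rise of 0.89 ± 0.14 (adjusted p = 0.00780). The rise was 0.91 and 0.85 without P0 library 1 or 2, where the edgeR call was lost. Casp6 was lower, at 6.11 and 9.07 CPM in P0 and 2.34 and 2.41 CPM in P3.

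Genes around PKR and its substrate were lower or did not pass in EG7-OVA cells. Of 14 genes of the PKR arm and translation initiation factor 2, 5 were lower with azacytidine and 3 with decitabine, and 0 were higher (medians -0.38 and -0.40). Over all genes, 6.7% and 4.3% were lower and 13.6% and 12.4% higher. Eif2s2, the beta subunit of eIF2, stood at 169 and 152 CPM in the DMSO libraries, 68.4 and 63.4 CPM after azacytidine and 88.2 and 68.5 CPM after decitabine. It fell by 1.29 (SE 0.18, adjusted p = 0.000981) and by 1.03 (SE 0.18, adjusted p = 0.00363) on the log2 scale. The azacytidine count was 1 without azacytidine library 1, 2 without azacytidine library 2 and 2 without DMSO library 1. The decitabine count was 1 without decitabine library 2, 1 without DMSO library 1 and 5 without DMSO library 2. The 3 sister kinases of PKR, Eif2ak1, Eif2ak3 and Eif2ak4, did not pass with either drug. In tumours Eif2ak3 was lower (-0.73 ± 0.11, adjusted p = 0.00747) and Eif2ak1 and Eif2ak4 were higher (0.56 ± 0.10 and 0.51 ± 0.10, adjusted p = 0.0123 and 0.0129) in P3. Without P0 library 1 or 2 these became 0.148 and 0.123 for Eif2ak3, 0.157 and 0.154 for Eif2ak1 and 0.159 and 0.161 for Eif2ak4.

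Of 18 other double-stranded RNA binding proteins and helicases tested, 0 were higher and 4 lower with azacytidine (median -0.27), where 13.6% of all genes were higher and 6.7% lower. With decitabine 1 was higher and 2 lower (median -0.34), where 12.4% of all genes were higher and 4.3% lower. The azacytidine count was 0 without azacytidine library 1, azacytidine library 2 or DMSO library 1, and 8 without DMSO library 2. The decitabine count was 1 without decitabine library 1 or DMSO library 1, and 5 without DMSO library 2.

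**Figure D5:**
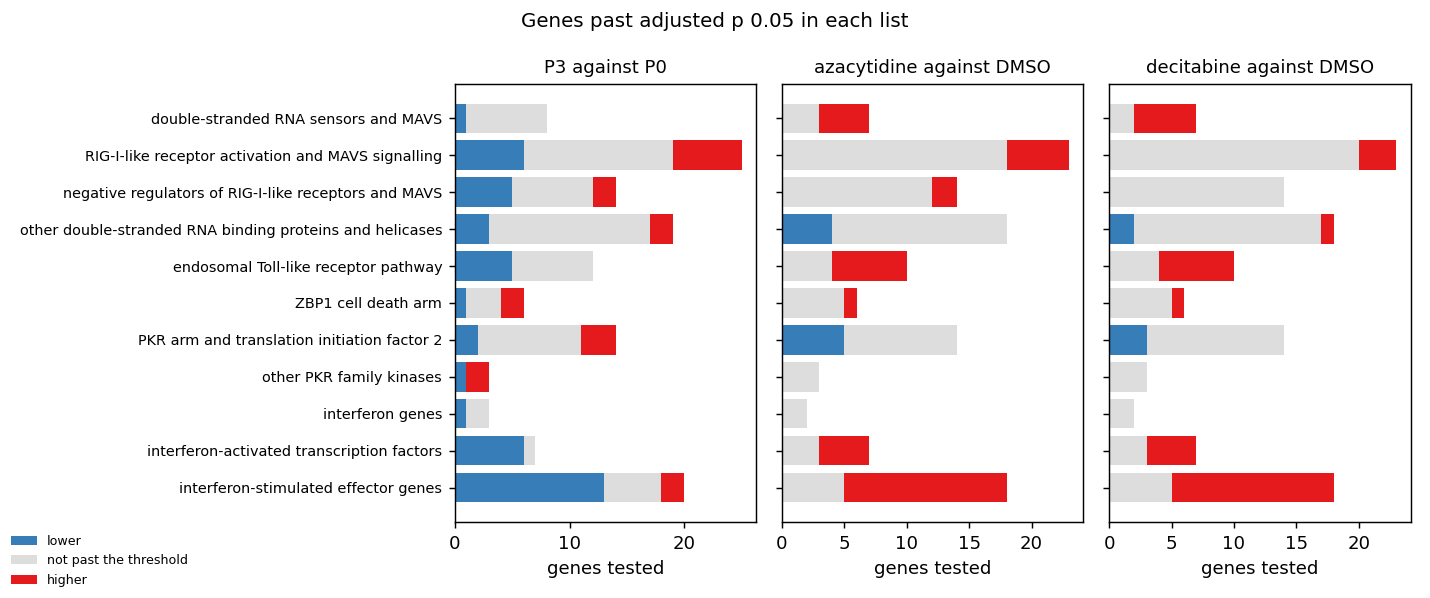
Genes of the sensor set and of 10 lists of related genes that were lower (blue), not past the test (grey) or higher (red) at adjusted p 0.05 in P3 against P0, azacytidine against DMSO and decitabine against DMSO; the horizontal axis counts genes tested, and the drug panels share their DMSO libraries. Interferon-stimulated effector genes show 13 lower and 2 higher in P3 and 13 higher with each drug, and the PKR arm shows 5 and 3 lower with the drugs.

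The genes whose pattern over the 6 EG7-OVA libraries was most like that of a sensor were found by the root mean square difference of centred log2 CPM among 9816 genes (9817 for Ifih1) at 5 CPM or more. For Rigi these included Tcp11l2 at 0.0978 and Parp14 at 0.151, where the spread of Rigi itself was 0.769. For Zbp1, with a spread of 1.65, they were Ahnak2 at 0.135, Ehf at 0.252 and Igtp at 0.261. The Ifih1 pattern was nearest to Mmd at 0.136, Cbfa2t3 at 0.196 and Rab11fip5 at 0.249, against a spread of 1.01. Dhx58 was nearest to Ston1 at 0.0811, Ppp1r3b at 0.111 and Pafah2 at 0.140 (spread 0.639), and Eif2ak2 to Pnrc2 at 0.0221, Pdcl at 0.0350 and Zfp462 at 0.0399 (spread 0.253). These likenesses describe the same 6 libraries and carry no test.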

How the data were processed

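Gene expression was measured in 10 libraries, 4 of EL4 tumours and 6 of EG7-OVA cells, 2 per group; NKYS libraries were not used here. The authors deposited counts per gene for EL4 and counts per gene symbol for EG7-OVA, made with fastp, Trim Galore, STAR and featureCounts per the submitters' processing notes, which name the builds mm10 and GRCh38. Tool versions and the use of strand: not given in the sources used here. The deposited EG7-OVA table holds estimated counts: 145 values in 62 entries were not whole and were rounded, none of them in the sensor genes.

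Each table was fitted on its own in edgeR 4.0.16 under R 4.3.3 (filterByExpr, TMM, 1 mean per group, the 6 EG7-OVA libraries together, two-sided quasi-likelihood test). Benjamini-Hochberg adjustment ran over all genes tested, with a threshold of 0.05. Standard errors were taken from the log2 fold change and the square root of its F statistic. The main comparisons left out no library. CPM used TMM-scaled library sizes. Exon lengths and positions came from GENCODE vM21 (mm10) and promoter windows from RefSeq (GRCm38.p6), matched by symbol. Whether the replicate numbers pair the libraries is not given by the labels. Deviations of same-numbered libraries correlated at -0.04 in EL4. In EG7-OVA they correlated at 0.273 between the drugs and, by column number, at -0.257 and -0.191 between a drug and DMSO, where the sample titles number the DMSO libraries differently. Alternatives were median-ratio scaling, DESeq2 1.42.0, limma-voom (limma 3.58.1), no filter, a replicate block, a stricter filter (100 counts in all and at least 1 CPM in both libraries of a group), fits of the 4 libraries of a comparison alone, and fits without each library in turn, where the lone library of a group is assumed to vary like the others. The pipeline was tested on simulated data.

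The sensor genes, the 10 lists of related genes and the marker lists were chosen with earlier results of these data known. From each list the text names among the 2 genes with the smallest p past the threshold per direction and comparison; for each sensor called in EG7-OVA cells it names the 3 genes nearest in pattern. Ifng and the sister kinases of PKR with the drugs were named after their values were seen. A few genes that these rules choose are not reported here. Adjusted p-values are edgeR's unless another tool is named.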

Additional observations from a re-analysis of the deposited data

How the results depend on the processing

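The number of sensor genes called in P3 against P0 was 1, and 2 with DESeq2, which added Mavs (-0.52, adjusted p = 0.0457). It ranged from 0 without either P0 library to 3 without either P3 library, where all genes called ran from 0 to 11286. With azacytidine 4 sensor genes were called, and 2 to 4 when a library was left out. With decitabine 5 were called, and 2 to 4 when a library was left out. Between the drugs 0 were called in every setting run, while all genes called numbered 177 with DESeq2 and 378 with no filter. All genes called with azacytidine numbered 3883, and 1675 without azacytidine library 1 and 2226 without azacytidine library 2. With decitabine they numbered 3198, and 1520 without decitabine library 2 and 2054 without DMSO library 1. The cause of these shifts was not tested.

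A block on the replicate number gave 1 sensor gene in P3 against P0, 3 with azacytidine and 4 with decitabine, and 5490, 3609 and 2954 of all genes; Ifih1 with azacytidine and Eif2ak2 with decitabine (adjusted p = 0.0670 each) lost their calls. The labels give these libraries only a number, and which DMSO sample holds which number is not known. Deviations of same-numbered libraries correlated at 0.273 between the drugs and at -0.257 and -0.191 between azacytidine or decitabine and DMSO. With the DMSO numbers crossed, a block chosen after seeing the data, 4 and 4 sensor genes and 4576 and 3922 of all genes were called.

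Signs turned only for values that did not pass. Ddx58 in P3 against P0 turned to -0.13 with DESeq2 without P0 library 1 (chosen after seeing the data), -0.12 with edgeR without it and -0.011 without P3 library 1. Adar with decitabine turned to -0.027 with median-ratio scaling, -0.027 with DESeq2, -0.0016 with limma-voom, -0.019 with the stricter filter and -0.0081 with only the 4 libraries compared. Without azacytidine library 1 or 2 it was -0.018 and -0.016, without decitabine library 2 it was -0.18 and without DMSO library 2 it was -0.073. Between the drugs, Ifih1 turned to 0.13 without azacytidine library 2 and 0.53 without decitabine library 1. Mavs turned to 0.080 without azacytidine library 2 and 0.076 without decitabine library 2. Depth limits Tlr3 and Ifih1 in EG7-OVA cells, and 2 libraries per group limit every interval.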

Other observations

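The oligoadenylate synthetases are further proteins that bind double-stranded RNA and answer it by making a second messenger. Oas3, the synthetase most selective for long RNA, stood at 12.8 and 18.9 CPM with DMSO, 90.9 and 62.5 CPM with azacytidine and 84.5 and 83.3 CPM with decitabine in EG7-OVA cells. It rose by 2.28 ± 0.25 (adjusted p = 0.000238) and 2.41 ± 0.25 (adjusted p = 0.000230) on the log2 scale.

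In the tumours Oas3 stood at 34.2 and 46.6 CPM in P0 and 35.3 and 40.2 CPM in P3, and the groups overlapped (-0.10 ± 0.17, adjusted p = 0.676). Oasl2, a relative with a ubiquitin-like tail, stood at 49.9 and 45.4 CPM in P0 and 23.4 and 20.2 CPM in P3 (-1.13 ± 0.12, adjusted p = 0.00319, and 0.129 and 0.0876 without P0 library 1 or 2). Macrophage markers were lower in the same P3 libraries, and their part in these values was not tested.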
